A study of Homo sapiens with 10 samples.

Results

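The retinoblastoma (RB) pathway and the E2F-controlled genes of the cell cycle were followed in 55 genes, all of which matched 1 Ensembl identifier each among the 63152 identifiers of the expression tables. The genes were chosen by name for their place in the pathway and not by a rule on their values, though earlier results of these data were known. RNA-seq had been performed on C33A cells, a human cervical carcinoma line with little BRG1 and BRM and without a working RB protein, 48 h after transient transfection. The 5 groups were the empty vector pOPRSVI (control), wild-type BRG1 (BRG1-wt), ATPase-deficient BRG1 (BRG1-mut), wild-type BRM (BRM-wt) and ATPase-deficient BRM (BRM-mut), with 2 replicates of each and 10 libraries in all. BRG1 (SMARCA4) and BRM (SMARCA2) are the alternative ATPases of the SWI/SNF chromatin remodelling complex. BRG1, BRM and the control vector were carried on different plasmid backbones, which both versions of an ATPase shared.

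The pathway controls entry into S phase. In early G1, RB1 and its relatives RBL1 and RBL2 bind E2F transcription factors and silence their targets. Cyclin D with CDK4 or CDK6, and then cyclin E with CDK2, phosphorylate the RB proteins and release E2F, whereas p16, p18, p27 and p57 (products of CDKN2A, CDKN2C, CDKN1B and CDKN1C) inhibit these kinases. Free E2F activates genes for origin licensing, DNA replication and nucleotide synthesis, and the MYBL2 and FOXM1 factors later activate the genes of G2 and mitosis. SWI/SNF is known to take part in RB-dependent arrest.

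Each expression table gave 1 base mean per gene, which is the authors' mean of the normalised read counts over 4 libraries, the 2 of an ATPase group and the 2 controls. The same control libraries entered all 4 tables, so a ratio of base means between tables is a damped measure of the ratio between the ATPase groups, and the difference between group means is double the difference between base means. The base means below were scaled so that the tables shared 1 median (aligned). A gene was counted as past the limit where its ratio was at least 1.2 in either direction, among genes whose aligned base mean reached 100 in both tables. Since each table held 1 pooled value, no test, SD or standard error could be computed and every expression comparison below is a description. The base means summed to between 36461843 and 38730372 per table.

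The transfected genes set the BRG1 tables apart from the BRM tables, as labelled. A base mean per gene does not separate a wild-type ATPase from its point mutant. The SMARCA4 base mean was 25708 in BRG1-wt, 30468 in BRG1-mut, 3978 in BRM-wt and 2963 in BRM-mut. SMARCA2 was at 12.6 in BRG1-wt, 9.53 in BRG1-mut, 61419 in BRM-wt and 72816 in BRM-mut. These genes are paralogues, and whether reads from shared sequence were split between them was not tested. The epithelial markers of the line were scarce, with EPCAM between 23.3 and 30.9, CDH1 between 3.11 and 6.25 and KRT19 at most 1.23, whereas KRT18 was between 254 and 693. Among markers of other cells, the leukocyte gene PTPRC was present at 1562 to 1783, COL1A1 was at 18.4 to 36.4 and ALB at 6.31 to 8.94. In the splicing data, the replicates of BRM-wt stood apart from the rest. Of 293 exons listed in both BRM-wt replicates, 280 changed in opposite directions, against 11 of 145 for BRG1-mut, 27 of 57 for BRG1-wt and 21 of 48 for BRM-mut.

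The 55 genes spanned over 3 orders of magnitude in level. Per kilobase of annotated exon, the mean of the 4 tables was highest for the mitotic cyclin gene CCNB1 (6816), the topoisomerase gene TOP2A (5634), the replication clamp gene PCNA (5182), MCM3 of the replicative helicase (3516) and the thymidylate synthase gene TYMS (3469). The order of neighbours in this list could not be set against any replicate spread. At the other end, CDK6 was at 2.19 per kb and CDKN1C at 1.66 per kb, after CCND2 at 62.2, CDKN2C at 113 and CDT1 at 139. CDK4, the other kinase partner of cyclin D, was at 2650 per kb. CDK6 (base means 24.0 to 30.6) and CDKN1C (3.52 to 5.18) stayed under the base mean of 100 in every table, so the comparisons between tables concern the 53 other members.

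**Figure D1:**
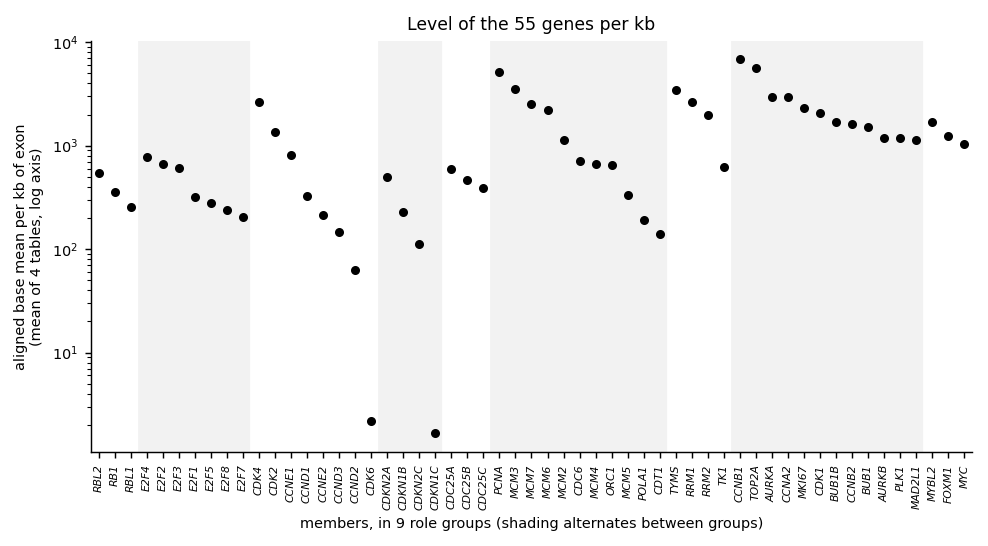
Each point is 1 of the 55 genes, placed by role group, and the vertical log axis gives the aligned base mean per kb of exon as the mean of the 4 tables, with no error because the tables hold pooled values. CCNB1 is the highest at 6816 and CDK6 and CDKN1C lie apart at 2.19 and 1.66.

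The members differed most between the 2 ATPase-deficient tables. In BRG1-mut against BRM-mut, 11 of 53 members (E2F1, E2F4, CCND3, CDKN2A, CDC25B, CDT1, MCM2, MCM5, TK1, PLK1 and MYBL2) were past the limit with the higher base mean in BRG1-mut, and 0 with the higher base mean in BRM-mut. Among all 11663 genes compared, 23.4% were past the limit on the BRG1-mut side and 0.429% on the BRM-mut side, so the share of members was near the background. The median ratio of the members was 0.98, beside 0.99 for all genes. BRG1-wt against BRG1-mut had 1 member past the limit on the wild-type side (CCND1) and 3 on the mutant side (CDT1, MCM5 and TK1), where all genes had 2.34% and 11.8%. In BRM-wt against BRM-mut, 5 members (CCND1, CDT1, MCM5, TK1 and MYBL2) were past it on the wild-type side and 0 on the mutant side, where all genes had 11.8% and 0.171%. The wild-type tables were alike for these genes. In BRG1-wt against BRM-wt, 0 of 53 members were past the limit, with ratios between 0.93 and 1.10, and all genes had 0.447% on the BRG1-wt side and 0.261% on the BRM-wt side. More cells in a given phase and more RNA of a gene per cell cannot be told apart in these bulk samples.

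**Figure D2:**
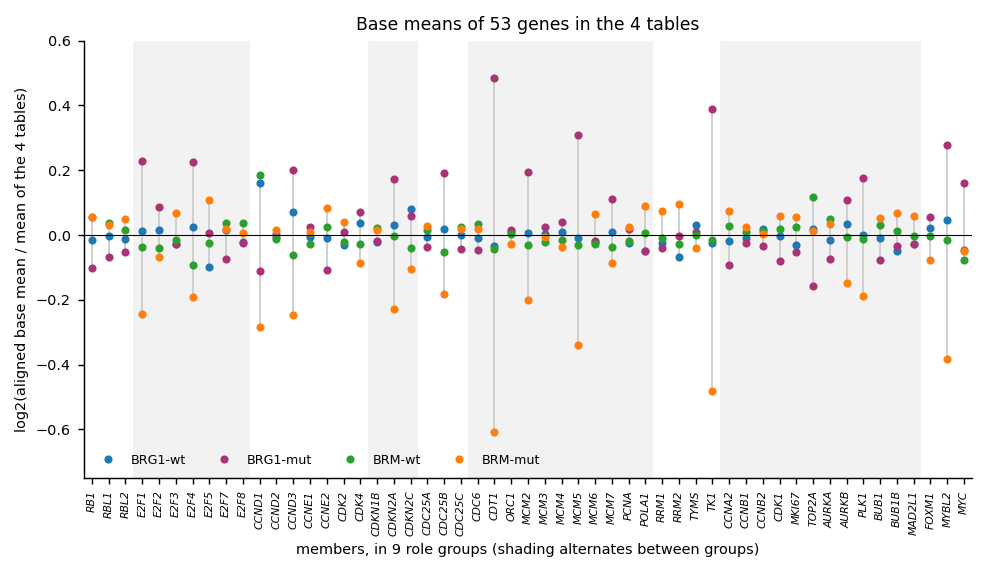
For each of 53 members the 4 points give log2 of the aligned base mean over the mean of the 4 tables (vertical axis), with members in role order along the horizontal axis and a grey line spanning the points. CDT1, TK1, MYBL2 and MCM5 have the widest spans, with BRG1-mut at the top and BRM-mut at the bottom, whereas both wild-type tables are at the top for CCND1.

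These ratios moved with base composition. The exonic GC content of the 11 members past the limit in BRG1-mut against BRM-mut was between 55.1% and 64.3%, and that of the 42 other members was between 34.9% and 57.6%. Over the 53 members, Spearman's rho between GC content and the ratio was 0.90 in BRG1-mut against BRM-mut, -0.72 in BRG1-wt against BRG1-mut, 0.71 in BRM-wt against BRM-mut and 0.78 in BRG1-wt against BRM-wt. Over all genes the values were 0.87, -0.67, 0.66 and 0.48, and all of these points share the same libraries. When the median ratio of genes with similar GC content was subtracted (50 bins), 1 of the members remained past the limit on the BRG1-mut side (MCM5) and 1 on the BRM-mut side (E2F1), with 614 and 307 of 11445 genes. In both wild-type against mutant comparisons CCND1 was then the only member past the limit, on the wild-type side, with 385 and 253 of 11593 genes past it on the wild-type and mutant sides for BRG1, and 449 and 92 of 11458 for BRM. The part of GC content in the ratios was not tested beyond this subtraction. With the tables left unaligned, 11 members were on the BRG1-mut side and 1 (CCNE2) on the BRM-mut side, beside 2238 and 448 of all genes. BRM-wt against BRM-mut then had 4 members and 870 and 156 of all genes, and BRG1-wt against BRM-wt had 0 members and 98 and 15 of all genes.

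**Figure D3:**
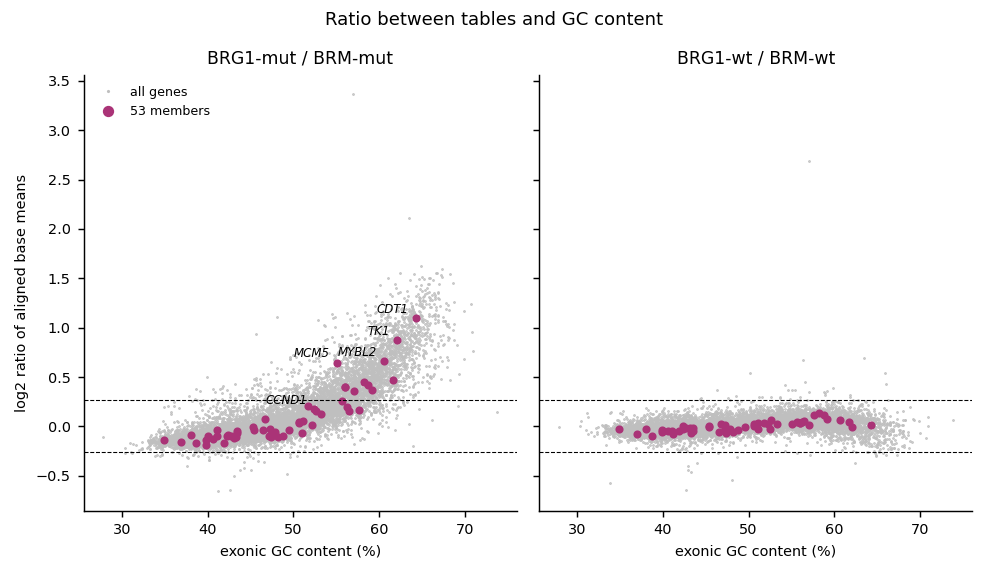
Grey points are all genes whose base mean reached 100 and coloured points are 53 members; the horizontal axis is exonic GC content in percent and the vertical axis the log2 ratio of aligned base means, for BRG1-mut over BRM-mut (left) and BRG1-wt over BRM-wt (right), with dashed lines at the limit of 1.2. On the left the members follow the rising band of all genes (rho 0.90 and 0.87), and on the right no member crosses a dashed line.

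The RB family genes were expressed in every table at nearly the same level. RB1, the tumour suppressor that holds E2F, was at 2275 in BRG1-wt, 2145 in BRG1-mut, 2390 in BRM-wt and 2393 in BRM-mut. RBL1 (p107) was at 1530, 1464, 1576 and 1569 in the same order, and RBL2 (p130) at 4358, 4240, 4440 and 4546. The highest and lowest tables differed by 1.12 times for RB1, 1.08 times for RBL1 and 1.07 times for RBL2, below the limit. The RB1 transcript was therefore present in this line, and its level says nothing of the protein.

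Of the 7 E2F genes, 2 were past the limit in BRG1-mut against BRM-mut and none in the other comparisons. Both were on the BRG1-mut side, where 23.4% of all genes were past it. E2F1, an activator of S phase genes, was at 865 in BRG1-wt, 1004 in BRG1-mut, 835 in BRM-wt and 723 in BRM-mut, and the ratio between the mutants was 1.39. E2F4, which forms repressor complexes with RBL1 and RBL2, was at 2820, 3238, 2602 and 2428, with a ratio of 1.33 between the mutants. After the GC trend was subtracted, these ratios were 0.83 for E2F1 and 0.97 for E2F4, so that both fell below 1, E2F4 only slightly. The activators E2F2 (3707, 3899, 3568 and 3500) and E2F3 (3128, 3129, 3153 and 3339) and the repressor-type E2F5 (1546, 1665, 1628 and 1785) kept within 1.2 times. The atypical repressors E2F7 (1290, 1210, 1307 and 1291) and E2F8 (969, 965, 1008 and 987) did so as well, in the same order of tables.

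CCND1, which encodes cyclin D1, was the only member past the limit on the wild-type side for both BRG1 and BRM, with and without the GC trend. On that side, as aligned, 2.34% of all genes were past the limit for BRG1 and 11.8% for BRM. The share of all genes past it in both was not computed. CCND1 lies at chr11:69455924-69469242 on the plus strand (GRCh37) and was at 1731 in BRG1-wt, 1434 in BRG1-mut, 1761 in BRM-wt and 1272 in BRM-mut. Its lower wild-type value was above its higher mutant value. TOP2A and CCNB2 also had both wild-type values above both mutant values, with ratios under the limit. The ratio of wild type to mutant was 1.21 for BRG1 and 1.38 for BRM as aligned, and 1.25 and 1.34 after subtraction of the GC trend. In group means these differences came to 594 normalised counts for BRG1 and 977 for BRM. Among all genes, the CCND1 ratio was at percentile 97.8 for BRG1 and 95.8 for BRM. Against each other, the wild-type tables had a ratio of 0.98 and the mutant tables of 1.13. The epithelial keratin genes moved in the same direction, with KRT18 at 693, 278, 608 and 254 and KRT8 at 454, 137, 382 and 87.5 in the same order of tables, while KRT19 was at 1.23 in both wild-type tables and listed at 0 in both mutant tables. EPCAM was at 23.9, 30.9, 23.3 and 28.6 and CDH1 at 6.25, 3.11, 5.46 and 5.15, and the part of these markers in the CCND1 values was not tested.

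None of the other G1 cyclin and kinase genes above the base mean of 100 had both wild-type values above both mutant values. CCND2 was at 498 in BRG1-wt, 494 in BRG1-mut, 493 in BRM-wt and 502 in BRM-mut, and its span of 1.02 times was the narrowest of the 55 members. CCND3 was at 893, 978, 814 and 717, with a ratio of 1.36 between the mutants that became 0.99 after the GC trend was subtracted. The cyclin E genes CCNE1 (2004, 2046, 1971 and 2024) and CCNE2 (935, 873, 957 and 997) kept within the limit, as did the kinase genes CDK2 (5165, 5311, 5198 and 5431) and CDK4 (8408, 8620, 8040 and 7726). Of the 7 genes of this group above the base mean of 100, CCND1 alone was past the limit in the wild-type against mutant comparisons. It was on the wild-type side, where all genes had 2.34% for BRG1 and 11.8% for BRM.

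Among the CDK inhibitors, CDKN1B (p27) was at 2089 in BRG1-wt, 2091 in BRG1-mut, 2153 in BRM-wt and 2141 in BRM-mut. CDKN2A, which encodes p16 and p14ARF, was at 1969, 2175, 1923 and 1646, with a ratio of 1.32 between the mutants and 1.07 after subtraction of the GC trend. CDKN2C (p18) was at 360, 354, 331 and 317 and was not past the limit. Of the CDC25 phosphatases, which remove inhibitory phosphates from CDKs, CDC25B was at 1826, 2058, 1739 and 1588. Its ratio between the mutants was 1.30, and 0.91 after the GC trend was subtracted, while CDC25A and CDC25C were between 0.96 and 1.03 in the 4 comparisons.

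The widest ratios between the mutants were those of CDT1, TK1, MYBL2 and MCM5, in the direction in which 23.4% of all genes were past the limit. CDT1, which loads the MCM helicase at origins (chr16:88870197-88875666, plus strand, GRCh37), was at 374 in BRG1-wt, 536 in BRG1-mut, 372 in BRM-wt and 251 in BRM-mut. Its wild-type tables were level, the BRG1-mut table was highest and the BRM-mut table lowest. The ratio between the mutants was 2.13, which is at percentile 98.5 of all genes, and 1.18 after the GC trend was subtracted. TK1, the thymidine kinase of the nucleotide salvage path (chr17:76170172-76183314, minus strand), was at 1122, 1494, 1128 and 817. The same order held for TK1, with a ratio of 1.83 between the mutants and 1.09 after subtraction. MYBL2, the B-Myb factor that activates late cell cycle genes (chr20:42295659-42345135, plus strand), was at 4888, 5740, 4686 and 3637, with ratios of 1.58 and 1.00. MCM5, a subunit of the replicative helicase (chr22:35796127-35821424, plus strand), was at 2394, 2984, 2360 and 1906. Its ratio between the mutants was 1.57 as aligned and 1.31 after subtraction, at percentile 98.0 of the GC-subtracted ratios of all genes. At 55.1%, MCM5 had the lowest GC content of the 11 members past the limit.

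**Figure D4:**
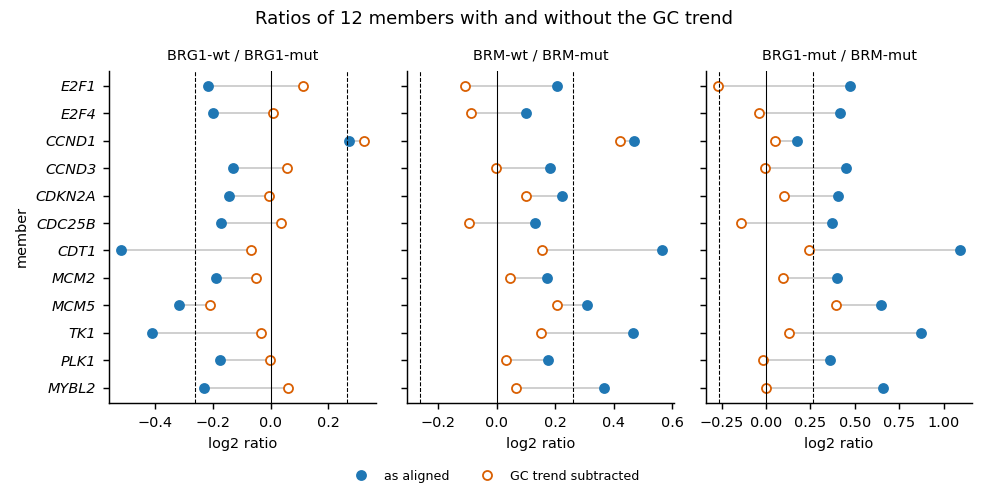
Log2 ratios of aligned base means (horizontal axis) for the 12 members past the limit of 1.2 (dashed lines) in any comparison, as aligned (filled) and after the median of genes with similar GC content was subtracted (open). CCND1 stays to the right of the dashed line in both wild-type against mutant panels (1.25 and 1.34 after subtraction), MCM5 in the panel of the mutants (1.31), and CDT1 moves from 2.13 to 1.18 there.

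The remaining replication genes kept closer together. MCM2 was at 5373 in BRG1-wt, 6124 in BRG1-mut, 5237 in BRM-wt and 4650 in BRM-mut, and its ratio between the mutants was 1.32, or 1.07 after subtraction of the GC trend. The other helicase subunits MCM3, MCM4, MCM6 and MCM7, the licensing factors CDC6 and ORC1, the clamp PCNA and the polymerase subunit POLA1 had ratios between 0.91 and 1.15 in every comparison. In nucleotide synthesis, the ribonucleotide reductase genes RRM1 and RRM2 and TYMS were between 0.92 and 1.04. Of the 11 licensing and replication genes, 3 were past the limit between the mutants (CDT1, MCM2 and MCM5), and of the 4 nucleotide genes 1 was (TK1). All were on the BRG1-mut side, where 23.4% of all genes were past it.

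The genes of G2 and mitosis were abundant and nearly level. Of the 12, PLK1, the kinase of mitotic entry, alone was past the limit, at 5630 in BRG1-wt, 6359 in BRG1-mut, 5589 in BRM-wt and 4948 in BRM-mut. Its ratio between the mutants was 1.29, in the direction in which 23.4% of all genes were past the limit. After subtraction of the GC trend it was 0.99. The median ratio of the 12 genes between the mutants was 0.93, with 10 genes higher in BRM-mut. All genes had a median ratio of 0.99, with 6001 of 11663 higher in BRM-mut. After subtraction of the GC trend, the median for the 12 genes was 0.98, with 8 higher in BRM-mut, beside 5700 of all 11445 genes. The median GC content of the 12 genes was 43.4%, against 46.6% for all genes. TOP2A, which untangles DNA before mitosis, was at 36341, 32175, 38918 and 36222, with a ratio of wild type to mutant of 1.13 for BRG1 and 1.07 for BRM, under the limit. These ratios became 1.10 and 1.11 after subtraction of the GC trend, and the BRG1-wt and BRM-mut values were close to each other. The proliferation marker MKI67 was between 28601 and 30850. Of the other cell cycle factors, FOXM1 was at 6143, 6283, 6029 and 5739, and MYC at 6168, 7109, 6032 and 6149, with a MYC ratio of 0.87 for BRG1-wt against BRG1-mut that did not pass the limit.

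A further 67 genes of the pathway were measured for comparison, from a list of 68 E2F partners, CDK regulators, replication and repair genes and mitotic genes. BRG1-wt against BRG1-mut had 1 of 65 past the limit on the wild-type side (all genes 2.34%) and 2 on the mutant side (all genes 11.8%). BRM-wt against BRM-mut had 3 of 64 on the wild-type side (all genes 11.8%). Between the mutants 6 of 64 were past it, on the BRG1-mut side in each case (all genes 23.4%), and between the wild types 1 of 65, on the BRG1-wt side (all genes 0.447%). CDKN2B, which encodes the CDK4 inhibitor p15 next to CDKN2A, was at 902 in BRG1-wt, 483 in BRG1-mut, 1007 in BRM-wt and 495 in BRM-mut. Its ratio of wild type to mutant was 1.87 for BRG1 and 2.04 for BRM, and 1.86 and 2.08 after subtraction of the GC trend, and both wild-type values were above both mutant values. POLD1, the catalytic subunit of DNA polymerase delta, was at 383, 618, 412 and 265, with a ratio of 2.33 between the mutants that became 1.15. PKMYT1, a kinase that inhibits CDK1, was at 419, 569, 416 and 317, with 1.80 between the mutants and 1.00 after subtraction. Between the wild types the largest ratios on the BRG1-wt side were 1.22 for CDKN2D (p19) and 1.10 for LIG1, a DNA ligase.

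The promoters of the 3 members with the largest ratio between the mutants are shown as examples of the sequence at these starts. Their ratios followed the GC trend of all genes and were 1.18, 1.09 and 1.00 after its subtraction, so the promoters are given as a description and not as the basis of a shared change. They are the 250 bases before the annotated start, from RefSeq (GRCh38.p14), 5′ to 3′ on the strand of the gene, with the E2F-type letters GGCGGGA and the CCAAT box in capitals wherever they occurred on either strand.
CDT1, chr16:88803539-88803788, plus strand: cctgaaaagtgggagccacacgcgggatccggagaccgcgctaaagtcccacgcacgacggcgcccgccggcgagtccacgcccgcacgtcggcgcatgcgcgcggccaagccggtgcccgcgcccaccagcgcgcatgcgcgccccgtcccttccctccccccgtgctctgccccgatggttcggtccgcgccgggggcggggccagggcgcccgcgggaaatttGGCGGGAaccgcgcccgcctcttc
TK1, chr17:78187053-78187302, minus strand: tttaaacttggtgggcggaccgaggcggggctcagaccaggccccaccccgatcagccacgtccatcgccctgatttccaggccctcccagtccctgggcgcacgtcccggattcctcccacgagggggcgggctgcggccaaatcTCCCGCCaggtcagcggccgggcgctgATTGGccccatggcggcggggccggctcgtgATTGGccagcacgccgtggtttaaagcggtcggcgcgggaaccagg
MYBL2, chr20:43666864-43667113, plus strand: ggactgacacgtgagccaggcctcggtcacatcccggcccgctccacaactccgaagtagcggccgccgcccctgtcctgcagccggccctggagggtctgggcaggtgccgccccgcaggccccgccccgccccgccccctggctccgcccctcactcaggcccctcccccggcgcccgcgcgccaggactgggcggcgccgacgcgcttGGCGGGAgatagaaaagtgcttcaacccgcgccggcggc
All 3 held the E2F-type letters once, beginning 24 bases before the start in CDT1, 104 in TK1 and 39 in MYBL2, and TK1 also held CCAAT in 2 places, beginning 77 and 46 bases before it. The GC content of these stretches was 76.4% for CDT1, 70.4% for TK1 and 76.8% for MYBL2. For TK1, which has 2 listed windows, the one with more matches is given.

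Promoter windows of 250 bases before to 50 after the start were listed for 43 members. GGCGGGA or its reverse complement TCCCGCC occurred in 21 of these (48.8%), against 18% of all 27305 genes with a window and 31.8% of the 8766 genes above the base mean of 100. It was found in 7 of the 10 matched members past the limit between the mutants and in 14 of 32 matched members that were not. The 11 members past that limit had a median exonic GC content of 58.8%, against 46.6% for the 42 that were not. GGCGGGA is itself made mostly of G and C, and the part of GC content in these counts was not tested. The CCAAT box occurred in 30 of 43 members (69.8%), against 39.7% of all genes and 44.1% of those above the base mean of 100. TTTGAA, the core of the CHR element of late cell cycle promoters, occurred in 11 of 43 (25.6%), against 18.2% and 13.5%. By role, TTTGAA was found in 7 and GGCGGGA in 3 of the 11 matched G2 and mitosis genes, whereas TTTGAA was found in 0 and GGCGGGA in 6 of the 9 matched licensing and replication genes. GGCGGGA and the reverse complement of CCAAT can share letters, so these counts are not independent, and a match is a description of the window.

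Alternative exons were listed for 5 of the 53 members. The 8 splicing tables gave the inclusion level (PSI, the share of transcripts with the exon, from 0 to 1) of exons that the authors' MISO analysis had scored as changed, in 1 control library and 1 ATPase library of the same replicate number. Exons in CCND3, CDK4, CDKN2A, MCM5 and AURKB were listed in at least 1 table (9.43% of members), where 18.1% of the 11428 genes that reached a base mean of 100 in every table had a listed exon. By group, 0 members had a listed exon in BRG1-wt (all genes 6.34%), 4 in BRG1-mut (CCND3, CDK4, CDKN2A and AURKB, all genes 7.81%), 2 in BRM-wt (CCND3 and MCM5, all genes 9.71%) and 1 in BRM-mut (CCND3, all genes 6.52%). The tables held only listed exons, so an exon that is missing may have been unchanged or too shallow to score. With 2 libraries a group, a two-sided exact permutation test cannot go below p = 0.333, and no test was made.

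The exon that recurred was exon 4 of CCND3, which encodes cyclin D3. It is a coding exon of 137 bp at chr6:41904297-41904433 on the minus strand (GRCh37), exon 4 of the canonical transcript CCND3-203, and its length is not a multiple of 3. Its sequence is given in lower case, with the flanking intronic dinucleotides that mark its splice sites in capitals.
CCND3 exon 4: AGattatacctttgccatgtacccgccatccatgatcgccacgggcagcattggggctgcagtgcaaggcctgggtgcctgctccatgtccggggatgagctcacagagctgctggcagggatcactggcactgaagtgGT
The PSI was 0.68 in control replicate 1 and 0.88 in control replicate 2. In BRG1-mut it was 0.92 in replicate 1, with no value listed for replicate 2, and no value was listed for BRG1-wt. In BRM-wt it was 0.92 in replicate 1 and 0.36 in replicate 2, whereas in BRM-mut it was 0.36 in replicate 1 and 0.67 in replicate 2. Both BRM-mut libraries were thus below the control of their number, by a change of -0.32 and -0.21, and also below both controls. In replicate 2 the latter rested on 0.67 against 0.68. Of 48 exons listed in both BRM-mut replicates, only 27 changed in the same direction. The BRM-wt replicates went in opposite directions, with a change of 0.24 and of -0.52, and their range covered that of the controls. The paper left out exons whose replicates or groups changed in opposite directions, and under that rule this exon would be left out. The controls themselves differed by 0.20, and over the 621 listed exons with a value in both control libraries this difference had a median of 0.13 and was 0.41 at the 90th percentile.

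The other listed exons were each found in 1 table. AURKB, the kinase of the chromosomal passenger complex, had a pair of overlapping forms of its exon 2 listed in BRG1-mut replicate 1. The shorter form of 49 bp (chr17:8113495-8113543, minus strand) is shown because both forms share it, again with the splice-site dinucleotides in capitals.
AURKB exon 2, 49 bp form: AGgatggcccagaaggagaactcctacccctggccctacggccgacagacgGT
Its PSI was 0.18 in the control and 0.41 in BRG1-mut, and that of the 73 bp form, which is exon 2 of the canonical transcript, was 0.40 and 0.63. In the same BRG1-mut library, 2 forms of an untranslated CDKN2A exon (172 and 187 bp, from chr9:21993881, minus strand) had a PSI of 0.89 and 0.88 in the control and of 0.33 and 0.29 in BRG1-mut, which were the largest changes among the members (-0.56 and -0.59). For CDK4, 4 forms of exon 2 had a PSI of 1.00 in control replicate 2 and of 0.98 to 0.99 in BRG1-mut replicate 2. MCM5 had a 149 bp exon outside the canonical transcript (chr22:35797659-35797807, plus strand) with a PSI of 0.01 in control replicate 2 and of 0.11 in BRM-wt replicate 2. Forms of 1 exon share reads and are not separate measurements.

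**Figure D5:**
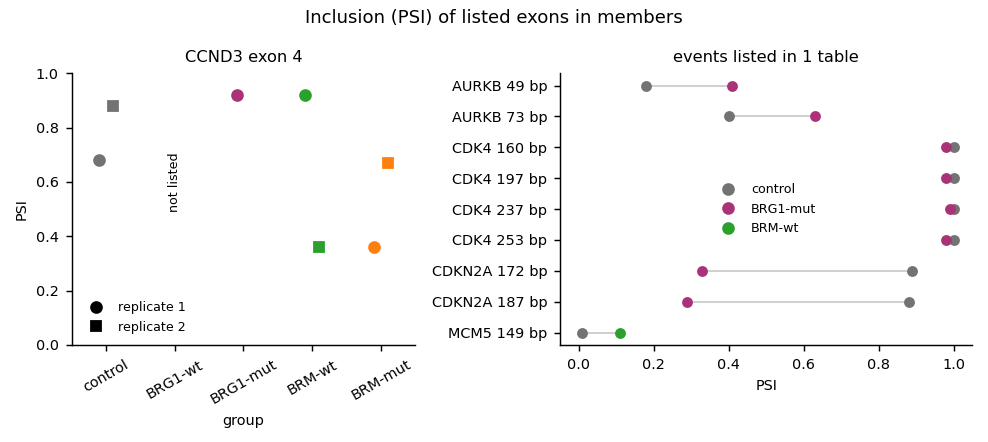
Left, PSI of CCND3 exon 4 (vertical axis, 0 to 1) in each library by group, with circles for replicate 1 and squares for replicate 2 and no listed value for BRG1-wt. Right, PSI (horizontal axis) of the exons listed in 1 table, with grey for the control library and colour for the ATPase library of the same number, in which the CDKN2A forms move from 0.89 and 0.88 to 0.33 and 0.29.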

How the data were processed

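RNA-seq of 10 libraries in 5 groups was processed by the authors, who per the labels and methods mapped reads with TopHat2 2.0.4 to GRCh37, counted genes with HTSeq 0.6.1 and ran DESeq2 and MISO. The deposited DESeq2 tables hold fold changes and p-values, which were not used here, and a base mean of size-factor-normalised counts, treated as a score. The deposited MISO tables hold PSI as a fraction, and their Bayes factors were not used. Strand use in counting was not given in the sources used here, and 10 of the 53 members overlap another coding gene above the base mean of 100, among them CCND1.

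Base means were aligned by the median log2 deviation over 11646 genes that reached a base mean of 100 in all 4 tables. Exonic GC content came from GENCODE on GRCh37 and was known for 98.2% of these genes. Exons were assigned to genes that they overlap on the same strand. The steps were run in Python 3.11.15 (pandas 2.3.3, NumPy 2.4.6). The alignment, the ratio and the GC subtraction were tested on simulated base means, and the other steps were not part of that test. The replicates are separate libraries of a group, and whether they came from separate cultures was not given in the sources used here. The members, lists and limits were chosen with earlier results of these data known. Base means are named for RB, E2F, G1 cyclin, CDK and inhibitor genes, MYC and every member past the limit, and other pathway genes by the largest ratios. TOP2A and MKI67 were named after their values were seen.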

Additional observations from a re-analysis of the deposited data

How the results depend on the processing

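The counts of members past the limit were sensitive to the limit and to GC content. With a limit of 1.5 they were 0 in BRG1-wt against BRG1-mut, 0 in BRM-wt against BRM-mut and 4 between the mutants, instead of 4, 5 and 11. All genes past 1.5 then numbered 100 on the wild-type and 272 on the mutant side of 11817 for BRG1, 263 and 0 of 11678 for BRM, and 1152 on the BRG1-mut and 2 on the BRM-mut side of 11663. With the GC trend subtracted they were 1, 1 and 2, and with 20 bins in place of 50, a choice made after seeing the data, 1, 1 and 1. With no minimum base mean, BRG1-wt against BRM-wt had 1 member in place of 0 (CDKN1C). With 50 bins, subtraction took the ratio between the mutants below 1 for E2F1 (0.83, and 0.90 with 20 bins) and E2F4 (0.97 and 0.96). The same held for CCND3 (0.99 and 0.98), CDC25B (0.91 and 0.93) and PLK1 (0.99 and 1.00). The ratios of E2F4, CCND3 and PLK1 were then close to 1. The cause was not tested. Members with a listed exon numbered 5 (all genes 18.1%). They numbered 3 where PSI changed by 0.2 or more (CCND3, CDKN2A and AURKB, all genes 11.5%), 1 with both replicates of a group in the same direction (CCND3, all genes 1.26%) and 4 with exons of opposite direction left out (all genes 16.3%). Without replicate 1 they were 3 (CCND3, CDK4 and MCM5, all genes 12.2%) and without replicate 2 also 3 (CCND3, CDKN2A and AURKB, all genes 11.1%). The mean change of CCND3 exon 4 in BRM-wt was -0.14 and ranged from -0.52 to 0.24 when either replicate was left out, so replicate 2 sets its direction. In BRM-mut it was -0.27 and ranged from -0.32 to -0.21. Against the mean of both controls, the BRG1-mut change was 0.14 in place of 0.24.

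No paired analysis was possible because the base means pool both replicates and the PSI values went into no test. Each splicing table already sets a library against the control of its own number. Pooled values carry no replicate error, and the ratios are damped by the shared controls.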

Other observations

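An exon that lies within the span of CDKN1B but on the opposite strand, in the gene GPR19 (chr12:12841447-12841866, minus strand, 420 bp), was listed in replicate 1 of 3 groups. Its PSI was 0.08 in control replicate 1, 0.47 in BRG1-mut, 0.31 in BRM-wt and 0.48 in BRM-mut. No value was listed for replicate 2, and CDKN1B itself was at 2089 to 2153 in the 4 tables.

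Among the other pathway genes, 10 of 64 had a listed exon (15.6%), beside 18.1% of all genes. The exon of the mitotic bundling factor PRC1 at chr15:91527923-91528055 (minus strand, 133 bp) was listed in 5 of the 8 tables. Its PSI was 0.58 in control replicate 1, and 0.88 in BRG1-wt, 0.91 in BRG1-mut and 0.95 in BRM-wt of that number. In replicate 2 it was 0.87 in the control, 0.99 in BRG1-mut and 0.68 in BRM-wt, so the BRM-wt replicates again differed in direction. An exon of the checkpoint kinase gene CHEK1 (chr11:125526101-125526230, plus strand, 130 bp) had a PSI of 0.26 in control replicate 2 and of 0.61 in both BRG1-mut and BRM-mut of that number.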
